A study of Mus musculus with 24 samples.

Results

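Knockdown of 14-3-3ζ was examined before adipogenic induction, at 0 h, by comparing si14-3-3ζ-transfected with siCon-transfected 3T3-L1 cells across all 9262 loci of the deposited RNA-Seq table. The comparison took the 8 of 24 libraries that the labels place at hour 0: 4 of cells given siRNA against 14-3-3ζ (si14-3-3ζ) and 4 of cells given control siRNA (siCon). 3T3-L1 is a mouse pre-adipocyte line that accumulates fat after hormonal induction, and the cells were at passages 12 to 15 per the labels. They were seeded at 90000 per well, transfected, and had spent 24 h with siRNA when hour 0 was reached, with no insulin, IBMX or dexamethasone yet added. The other 16 libraries were made after 24 and 48 h of induction with dexamethasone, a glucocorticoid, at 500 nM, IBMX, an inhibitor of cAMP breakdown, at 500 µM and insulin at 172 nM. Both groups were transfected and no untransfected library was analysed here, so each value below is a difference between cells given different siRNAs. The siRNA sequences are not given in the sources used here. Nothing in the labels says that the 4 libraries of a group came from separate cultures, and each p-value is therefore set against a spread that could be technical only. In RNA from whole cultures, fewer cells of a kind and less RNA per cell cannot be told apart.

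14-3-3 proteins are adaptors that bind phosphorylated serine and threonine motifs and change where their partners reside, how active they are or how long they last. 14-3-3ζ, the product of Ywhaz, is one of 7 mammalian isoforms, and its partners include cell cycle regulators, transcription factors and kinases. Pre-adipocytes are fibroblast-like cells that secrete collagenous matrix, chemokines and acute-phase proteins. They also carry the interferon system, in which cytoplasmic sensors of foreign RNA raise a large set of antiviral genes through STAT and IRF factors.

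Values are FPKM as the authors deposited them, that is, fragment numbers corrected for transcript length and for the mapped total of each library. The table holds no counts, so the depth behind a single value is unknown. The listed FPKM summed to 515950 to 597088 per library in siCon cells and 474548 to 547933 in si14-3-3ζ cells, and 15 to 48 loci were listed at 0. Libraries of a group correlated at 0.981 to 0.991 across loci and libraries of different groups at 0.967 to 0.982. In a principal component analysis of the 8 libraries, the first component (41.8% of the variance) separated si14-3-3ζ from siCon and the second (20.0%) had siCon replicates 1 and 3 on one side and 2 and 4 on the other. Differences were tested in limma on log2(FPKM + 1) and called at a Benjamini-Hochberg adjusted p under 0.05 over all loci. Log2 fold changes on this scale understate the change of genes with low FPKM, and a positive value means higher in si14-3-3ζ cells. Every listed locus had a group mean of at least 1.45 FPKM somewhere and a highest group mean at least 1.18 times its lowest. Loci that varied less between groups are therefore not among those tested, and every share of called loci refers to this set. The gene lists below and their members were chosen with earlier results of these data known, so their shares are not independent support.

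The siRNA lowered its target. Ywhaz was 182, 158, 168 and 154 FPKM in the 4 siCon libraries and 27.0, 34.3, 21.9 and 35.0 in the si14-3-3ζ libraries, a mean of 166 ± 12.7 against 29.5 ± 6.26 (SD, n = 4), 5.60-fold lower. The groups did not overlap, and the log2 fold change was -2.47 ± 0.19 (SE, limma adjusted p = 1.1e-08). Ywhaz lies on chromosome 15, 36700525 to 36724302 (NCBIM37, minus strand). Its lowest value was in si14-3-3ζ replicate 3, which also lay farthest from the siCon libraries on the first principal component, and its highest was in replicate 4, which lay nearest. The other 4 isoforms that could be measured alone did not pass the test. Ywhab had a log2 fold change of -0.19 (95% interval -0.37 to -0.01), Ywhaq -0.12 (-0.29 to 0.05), Ywhae 0.13 (-0.04 to 0.30) and Ywhah 0.14 (-0.09 to 0.38). Ywhae passed only after quantile normalization. Sfn shares a locus with another gene, and Ywhag was not analysed here.

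Before induction, 1603 loci differed between the groups, 17.3% of the 9262 tested. Of these, 750 were higher in si14-3-3ζ cells (8.10% of all loci) and 853 lower (9.21%). The falls were larger than the rises: 93 loci fell more than 2-fold and 15 rose more than 2-fold, and the median log2 fold change was -0.54 among loci called lower and 0.42 among loci called higher. The median over all loci was 0.01. Rises over 2-fold numbered 37 with a pseudocount of 0.1 and 8 among loci with a mean of at least 5 FPKM, and falls over 2-fold 55 at that mean. Falls were also commoner among abundant transcripts. Of the 854 loci with at least 100 FPKM, 17.9% were called lower and 7.14% higher, whereas of the 3444 loci from 5 to 20 FPKM, 6.97% were lower and 8.68% higher. The 8 libraries did not overlap between groups at 22.1% of all loci. Without si14-3-3ζ replicate 3 the number of calls fell to 1023 (420 higher and 603 lower).

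**Figure D1:**
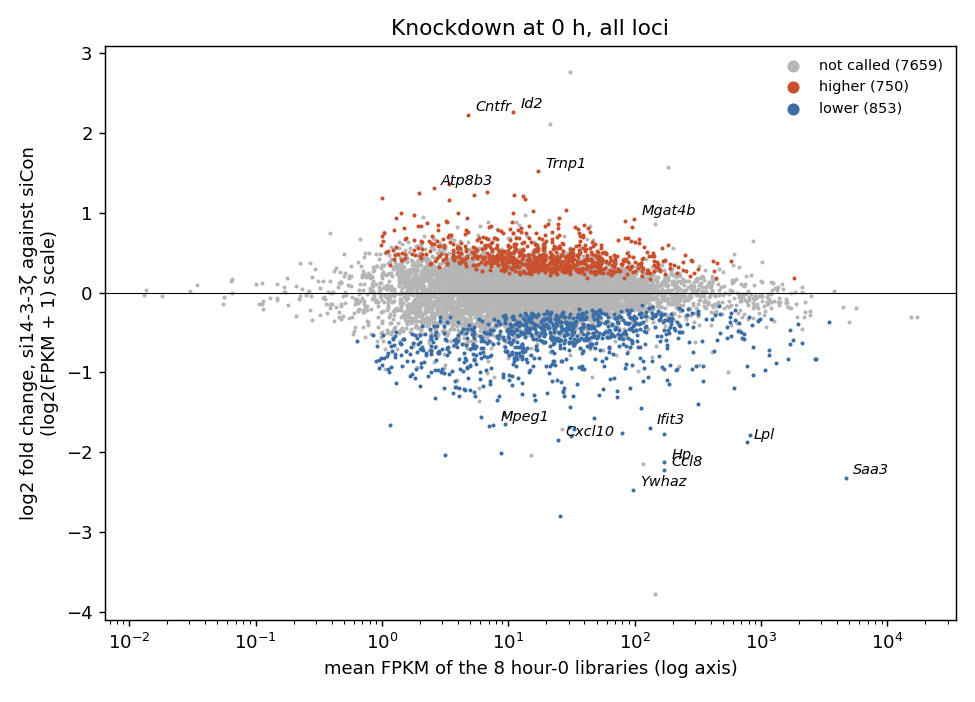
Log2 fold change of si14-3-3ζ against siCon cells at 0 h (vertical axis, log2(FPKM + 1) scale) against the mean FPKM of the 8 hour-0 libraries (horizontal log axis), with 1 point per locus. Grey points were not called, the 750 red points were called higher and the 853 blue points lower. Named falls such as Ywhaz and Saa3 reach below -2, and the rises of Id2 and Cntfr reach above 2.

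The summed FPKM was lower on average in si14-3-3ζ libraries, a difference that did not pass an exact test. Its mean was 515343 ± 31205 in si14-3-3ζ and 568317 ± 36876 in siCon libraries (SD, n = 4). An exact 2-sided permutation test that did not pair libraries gave p = 0.0857 (smallest possible 0.0286). In every replicate number the si14-3-3ζ sum was the lower. The sums of replicates 1 to 4 were 474548, 528427, 510464 and 547933 in si14-3-3ζ against 515950, 569367, 590864 and 597088 in siCon libraries. The loss in the 10 loci that lost most equalled 42.1% of the net difference over all loci, in which gains offset losses. Among them were Saa3, Bgn, Col1a2, Spp1, Sparc, Gapdh and Rplp1. The others carry no gene symbol, the largest of them at -4528 FPKM.

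Id2 and Cntfr rose most. Id2, a dominant negative partner of basic helix-loop-helix factors, was 5.10, 2.03, 2.06 and 2.92 FPKM in siCon and 25.7, 13.5, 25.6 and 10.4 in si14-3-3ζ libraries, 6.22-fold higher (2.26 ± 0.27, adjusted p = 8.5e-06). Cntfr, the receptor subunit for ciliary neurotrophic factor, was 0.800, 0.961, 1.60 and 0.836 FPKM against 9.02, 7.15, 11.1 and 7.07. The groups did not overlap for either gene, and in si14-3-3ζ cells both were higher in replicates 1 and 3 than in 2 and 4. Atp8b3, a P4-type ATPase, stood at 1.07 ± 0.226 and 4.10 ± 0.432 FPKM (SD, n = 4; log2 fold change 1.31 ± 0.12, limma adjusted p = 3.4e-07). Slc19a2, a thiamine transporter, rose from 8.06 ± 1.93 to 19.2 ± 2.56 FPKM, and Sulf2, an extracellular sulfatase that edits heparan sulfate, from 6.63 ± 3.11 to 15.7 ± 1.71. Mgat4b, an N-glycan branching enzyme of the Golgi, was 63.0, 69.3, 70.8 and 69.2 FPKM in siCon libraries and 129.6, 131, 130.3 and 129 in si14-3-3ζ libraries. The 4 si14-3-3ζ values were nearly equal and each was well above every siCon value. Mgat4b lies 63 bp from the autophagy gene Sqstm1 on chromosome 11, and Sqstm1 moved the other way (-0.33). Enho, which encodes the secreted peptide adropin, rose from 1.76 ± 0.697 to 5.05 ± 0.934 FPKM and lies 17172 bp from Cntfr on chromosome 4. Fgf23, an endocrine growth factor, rose (1.22), but its call was lost under a pseudocount of 0.1 and without 4 of the 8 libraries in turn. Podxl2 (1.18), Slc4a8 (1.24), Gdf10 (0.97) and Lrrc16b (0.99) started from siCon means under 1 FPKM. Trnp1 (1.52), Serpinb8 (1.02), Elovl4 (0.89), Havcr2 (0.87) and Wdr6 (0.86) complete the largest rises together with Actg2, Trp53inp1 and Id1, described with their groups.

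After Ywhaz, the genes that fell most included Saa3 (-2.32), Ccl8 (-2.22), Hp (-2.13), Ear11 (-2.01), Lpl (-1.87), Cxcl10 (-1.85), Spp1 (-1.78) and Rarres2 (-1.77). Rarres2, which encodes the adipokine chemerin, was 277, 237, 286 and 246 FPKM in siCon libraries and 59.2, 87.2, 59.7 and 105 in si14-3-3ζ libraries. Spp1, the secreted phosphoprotein osteopontin, fell from 1286 ± 299.8 to 366 ± 21.0 FPKM. The groups did not overlap for either gene. Slc40a1, the iron exporter ferroportin, fell from 47.1 ± 15.5 to 13.5 ± 1.66 FPKM and was higher in siCon replicates 1 and 3 than in 2 and 4. Mpeg1, a pore-forming protein best known from macrophages, fell from 12.2 ± 3.34 to 3.07 ± 0.187 FPKM (-1.66 ± 0.14, adjusted p = 5.5e-08). Ear11 is an eosinophil-associated ribonuclease, and Olr1 (-1.52) a receptor for oxidised lipoprotein whose call was lost without siCon replicate 1. The histone gene Hist1h2bc fell from 45.6 ± 18.9 to 15.7 ± 3.77 FPKM, and its neighbours Hist1h1d, Hist1h1c and Hist1h2ac, named for their position, had log2 fold changes of -0.61, -1.30 and -0.95 and were called lower too.

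**Figure D2:**
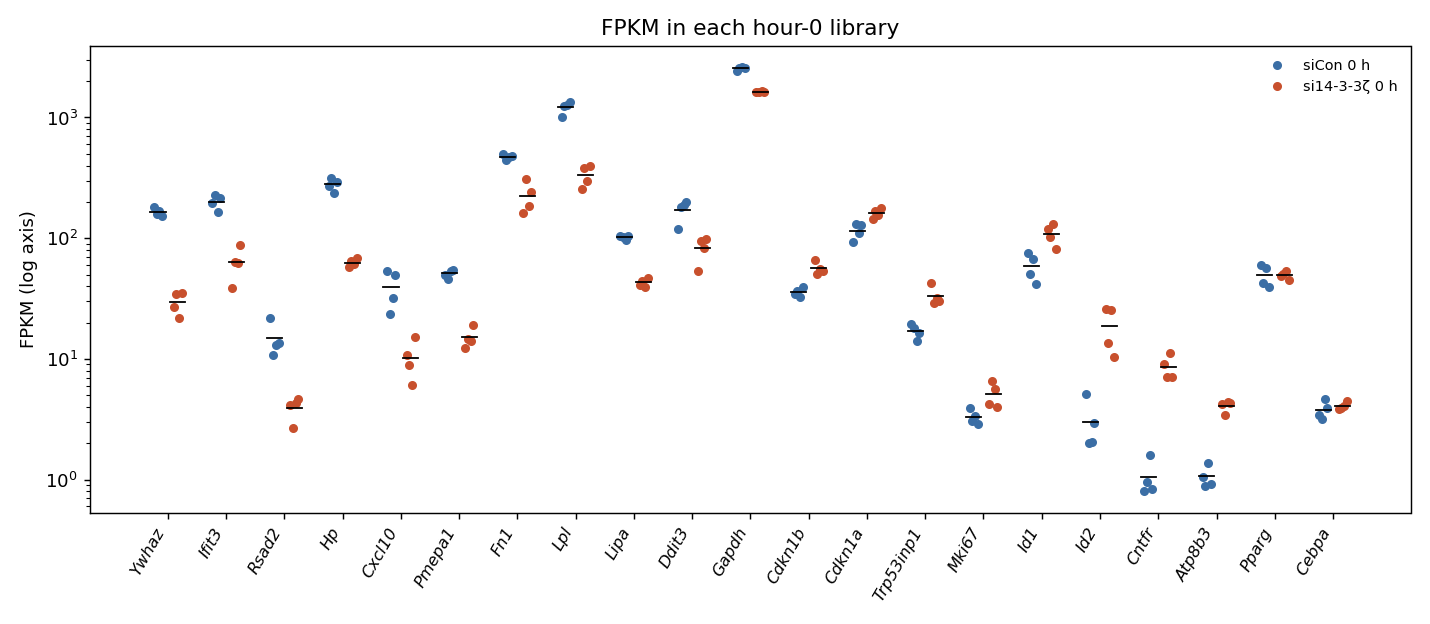
FPKM (vertical log axis) of 21 named genes in each hour-0 library: blue points are the 4 siCon libraries, red points the 4 si14-3-3ζ libraries, and each black bar is a group mean. The groups are apart for Ywhaz, Ifit3, Hp and Id2 and overlap for Pparg and Cebpa.

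Interferon-stimulated genes were lower in si14-3-3ζ cells. Of 48 measured members, 21 were called lower and none higher, against 9.21% and 8.10% of all loci, and 46 of 48 had a negative log2 fold change. Their median log2 fold change was -0.66, and for 31 of 48 the groups did not overlap, against 22.1% of all loci. The count moved with the settings: it was 9 with a pseudocount of 0.1 and 33 when only the 8 hour-0 libraries were fitted. It was 12 among loci with a mean of at least 5 FPKM over all 24 libraries. That filter can leave out members whose level dropped after induction, so part of this lower count may come from members not tested.
Interferon target promoters carry the interferon-stimulated response element, which STAT and IRF factors bind. Its core, searched as TTTCNNTTT on either strand from 250 bases before to 50 after the start of transcription, was in 25 of the 35 members with a promoter in the RefSeq table (71.4%) and in 12.1% of all 27025 genes. It was in 10 of 14 members called lower and in 15 of 21 not called. The stretches below show it in named members that fell, 5′ to 3′ on the gene's strand, with in capitals the match nearest the start and any other within 60 bases:
Ifit3: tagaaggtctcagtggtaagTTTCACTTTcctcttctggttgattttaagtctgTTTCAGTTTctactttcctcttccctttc
Oas1g: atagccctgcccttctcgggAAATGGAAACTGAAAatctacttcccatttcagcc
Rsad2: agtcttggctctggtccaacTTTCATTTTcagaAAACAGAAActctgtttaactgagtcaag
They lie at chr19:34583353-34583435 (plus strand), chr5:120887596-120887650 (minus) and chr12:26456531-26456592 (minus) of GRCm38.p6. Cmpk2 and Herc6 had no match in their windows.

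Ifit3, an antiviral protein with tetratricopeptide repeats, was 195, 227, 163 and 215 FPKM in siCon libraries and 38.5, 64.1, 62.4 and 87.8 in si14-3-3ζ libraries (-1.69 ± 0.28, adjusted p = 0.0003). Its highest si14-3-3ζ value was well below its lowest siCon value. Rsad2, which encodes viperin, an enzyme that makes a chain-terminating nucleotide, was 21.7, 10.9, 13.0 and 13.6 against 4.18, 2.66, 4.31 and 4.64 FPKM. Cmpk2, a mitochondrial nucleotide kinase gene 12752 bp from Rsad2 on chromosome 12, fell from 12.4 ± 2.31 to 5.59 ± 0.994 FPKM. Mx1, a GTPase that traps viral nucleocapsids, was 13.1, 18.6, 10.4 and 24.5 against 5.82, 7.43, 6.55 and 8.38. The siCon libraries of Mx1 spread more than 2-fold among themselves and still lay above all si14-3-3ζ libraries. Oas1g, of the oligoadenylate synthetase family that activates RNase L, fell from 5.48 ± 1.30 to 2.06 ± 0.898 FPKM, a call lost with a pseudocount of 0.1. Herc6, a ligase of the ubiquitin-like modifier ISG15, fell from 29.2 ± 3.94 to 17.2 ± 4.42. The median over the 48 members was -0.91, -0.64, -0.57 and -0.44 on the log2 scale in si14-3-3ζ replicates 1 to 4, relative to the siCon mean, and from -0.17 to 0.09 in the siCon libraries.

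The effect on interferon-stimulated genes differed between 0 and 48 h. In siCon cells their median level was 39.0 FPKM at 0 h, 5.74 at 24 h and 2.23 at 48 h, and in si14-3-3ζ cells 25.1, 4.52 and 3.95. At 24 h, 5 members were called lower and 3 higher (13.9% and 14.5% of all loci). The effect at 24 h was called as changed from 0 h for 2 of 48 members (1.45% of all loci). At 48 h, 1 was lower and 19 higher (22.8% and 23.3% of all loci). The effect of knockdown at 48 h differed from that at 0 h, by the test of that difference, for 33 of 48 members and for 17.9% of all loci. Ifit3 changed its effect by 1.73 ± 0.40 (adjusted p = 0.00521), when its siCon mean had dropped to 0.766 ± 0.126 FPKM. Mx1 went from -1.08 at 0 h to 0.59 at 48 h (change 1.66 ± 0.31, adjusted p = 0.00107) and Ddx60, a helicase that aids RNA sensing, from -0.83 to 0.82 (change 1.65 ± 0.31, adjusted p = 0.00102). Levels near or under 1 FPKM are compressed on this scale, and the siCon means of Ifit3, Mx1 and Ddx60 at 48 h were all under 1 FPKM.

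Of 14 measured genes of MHC class I antigen presentation, which interferon also raises, 2 were lower and none higher, a share lower of 14.3% against 9.21% of all loci. Tap1, a subunit of the peptide transporter, was 37.6, 35.9, 28.2 and 34.4 FPKM against 14.2, 17.9, 19.2 and 22.9. It overlaps Psmb9 on the annotation, and the counting is not stated to use strand, so reads of the pair may be shared. The same holds for Cxcl10 with Art3, Rarres2 with Lrrc61, Timp1 with Syn1, Ddit3 with Mars, Sulf2 with Ncoa3, Wdr6 with Dalrd3, Acvr2a with Orc4, Ccnd1 with Oraov1 and Cdc20 with Elovl1. H2-T24 fell from 1.51 ± 0.272 to 0.403 ± 0.236 FPKM.

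Acute-phase and complement genes were also lower. Of 16 measured members, 8 fell and none rose, against 9.21% and 8.10% of all loci, with a median log2 fold change of -0.52. Hp, the haemoglobin scavenger haptoglobin, was 269.9, 314, 237 and 295 FPKM in siCon libraries and 57.7, 64.3, 60.7 and 68.8 in si14-3-3ζ libraries, 4.44-fold lower (adjusted p = 0.00059). Saa3 and Saa1, serum amyloid A genes 24825 bp apart on chromosome 7, fell together: Saa1 was 5.51, 12.8, 7.30 and 13.1 FPKM against 2.54, 2.05, 3.25 and 2.04, and Saa3 5270.3, 9626, 6445 and 10239 against 1299, 1555, 1574 and 1680.1. The siCon values of both genes were higher in replicates 2 and 4 than in 1 and 3, whereas the si14-3-3ζ values varied little. Lcn2, the siderophore-binding lipocalin, fell from 1156 ± 201 to 559 ± 43.9 FPKM, and Serping1, the C1 esterase inhibitor, from 79.0 ± 6.18 to 33.7 ± 2.56 (-1.21 ± 0.14, adjusted p = 4.8e-06). C4b, a complement component, fell from 3.08 ± 1.10 to 1.20 ± 0.338 FPKM.

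Among 14 measured chemokines, 6 fell and 1 rose, against 9.21% and 8.10% of all loci, with a median log2 fold change of -0.76. Ccl8, a monocyte attractant, was 232, 306, 256 and 330.1 FPKM against 46.3, 61.5, 62.5 and 67.8. Cxcl10, an interferon-induced T cell attractant, was 53.01, 23.4, 31.9 and 50.04 against 10.7, 8.89, 6.05 and 15.2, with siCon values that spread more than 2-fold. Cxcl1, a neutrophil attractant, fell from 217 ± 41.8 to 112 ± 14.7 FPKM and Cxcl12, the ligand of CXCR4, from 2149.8 ± 360.2 to 1416 ± 107. Ccl11, eotaxin, fell from 6.87 ± 3.77 to 2.12 ± 0.364 FPKM and lies 52230 bp from Ccl8 on chromosome 11, and Ccl2, named for lying 77732 bp from Ccl8, had a log2 fold change of -1.20 and was called lower. Cx3cl1, the membrane-tethered fractalkine, rose from 7.78 ± 0.166 to 14.1 ± 3.43 FPKM. The calls of Cxcl1, Cxcl12, Ccl11 and Cx3cl1 were lost when any of 3 to 6 single libraries was left out, and 3 chemokines were called lower without siCon replicate 1 or without si14-3-3ζ replicate 3. The NF-κB element GGAANTTCC was in 2 of 8 chemokine promoters (25.0%) and in 1.07% of all genes, and both matches are shown because these genes fell:
Cxcl1: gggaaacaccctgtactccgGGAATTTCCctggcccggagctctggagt
Cxcl10: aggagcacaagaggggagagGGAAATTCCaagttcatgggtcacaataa
They lie at chr5:90891155-90891203 (plus strand) and chr5:92349019-92349067 (minus) of GRCm38.p6. No acute-phase member held this element (0 of 12, too few to judge an element in 1.07% of all genes). TTGCNNAA, the C/EBP element, was in 9 of 12 (75.0%) and in 12.2% of all genes. Of 17 measured genes of the NF-κB system itself, none was called lower and 2 rose, namely Relb (from 18.9 ± 1.51 to 25.4 ± 1.39 FPKM) and Nfkb2 (from 46.2 ± 6.96 to 59.3 ± 5.90), the subunits of the non-canonical pathway. The call of Nfkb2 was lost without any of 4 libraries.

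**Figure D3:**
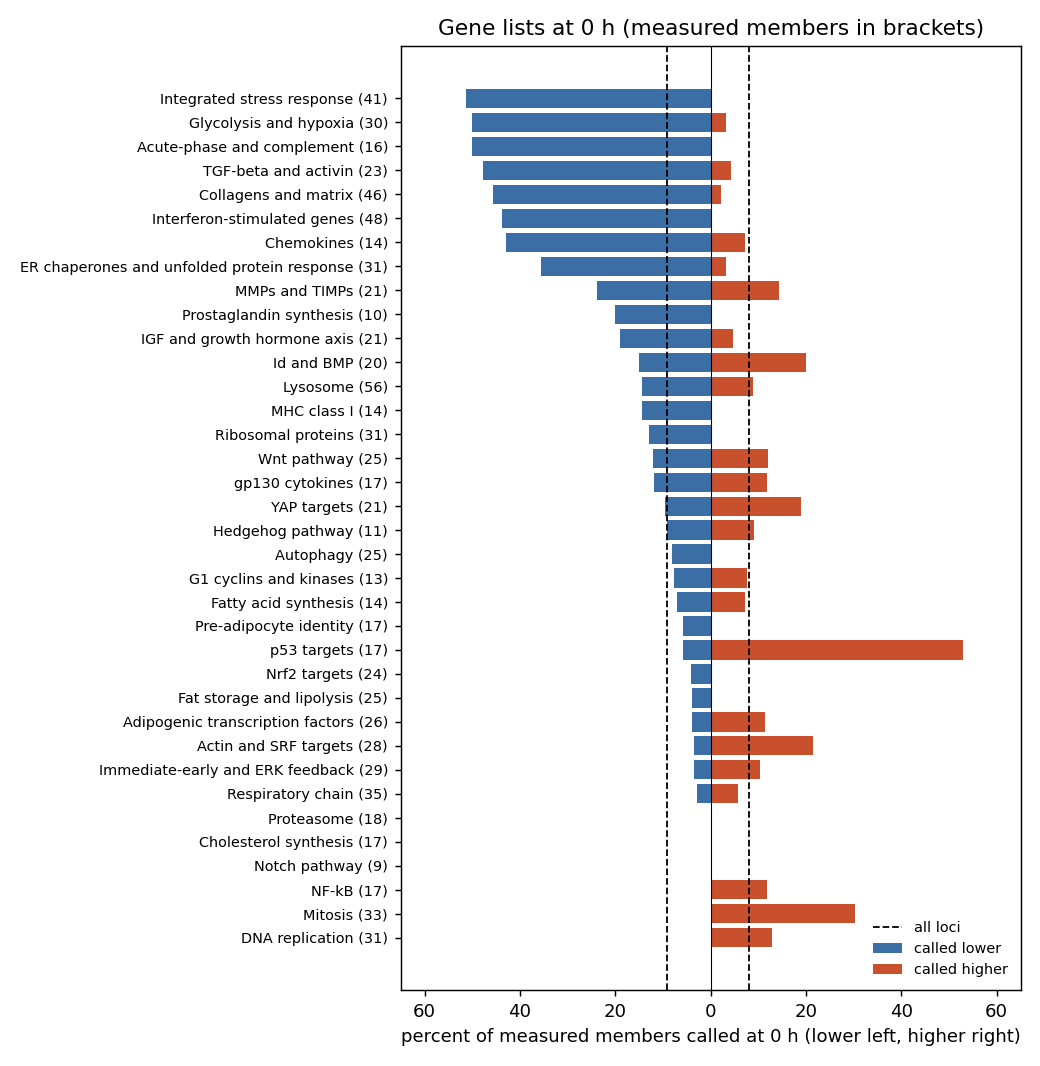
Percent of the measured members of each gene list (rows, with the number measured in brackets) that were called lower (blue, to the left) or higher (red, to the right) at 0 h. Dashed lines mark all 9262 loci (9.21% lower and 8.10% higher). Integrated stress response, glycolysis, acute-phase, TGF-β, collagen, interferon and chemokine lists extend far to the left, and p53 targets and mitosis to the right.

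Genes of TGF-β and activin signalling fell more often than they rose. Of 23 measured, 11 fell and 1 rose, against 9.21% and 8.10% of all loci, with a median log2 fold change of -0.36. Pmepa1, a TGF-β-induced inhibitor of Smad signalling, was 50.04, 46.2, 53.6 and 54.5 FPKM against 12.4, 14.7, 14.2 and 19.1 (-1.71 ± 0.19, adjusted p = 3.4e-06). Its groups did not overlap. Receptors fell by less: Tgfbr1, the type I receptor, went from 18.6 ± 2.27 to 13.3 ± 1.20 FPKM, the co-receptor Tgfbr3 from 76.3 ± 8.35 to 51.6 ± 2.74 and the activin receptor Acvr2a from 26.1 ± 1.11 to 17.6 ± 4.43. Ltbp3, which holds latent TGF-β in the matrix, fell from 81.5 ± 3.86 to 55.5 ± 4.10 FPKM. Inhba, the activin A subunit, fell from 15.6 ± 2.06 to 9.34 ± 1.72, a call lost without siCon replicate 3 or si14-3-3ζ replicate 4. The member that rose was the ligand gene Tgfb2, from 3.73 ± 0.802 to 5.31 ± 0.807 FPKM, lost without any of 4 libraries. The effect on Pmepa1 and Inhba was larger at 24 h, the change being -1.32 ± 0.27 (adjusted p = 0.0127) and -1.58 ± 0.27 (adjusted p = 0.00378) on the log2 scale.

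The Id genes, known targets of bone morphogenetic proteins, moved the other way. Of 20 measured Id and BMP genes, 4 rose and 3 fell, against 8.10% and 9.21% of all loci. The 4 that rose were Id1, Id2, Id3 and Id4. Id1 was 75.2, 50.2, 67.7 and 41.6 FPKM in siCon libraries and 118, 101, 132 and 81.8 in si14-3-3ζ libraries (0.89 ± 0.15, adjusted p = 0.00023), and Id3 100.3, 56.0, 74.6 and 47.5 against 138, 106, 139 and 98.0, where the groups met at their edges. In both groups the values of Id1 and Id3 were higher in replicates 1 and 3 than in 2 and 4. The falls included Bmp1, a procollagen C-proteinase in spite of its name (from 198 ± 34.2 to 113 ± 9.47 FPKM) and Chrd, a secreted BMP antagonist (from 1.36 ± 0.320 to 0.482 ± 0.132). By 24 h the log2 fold change of Id1 was 0.09 (adjusted p = 0.666) and that of Id2 1.69 (adjusted p = 9.9e-05). The effect at 24 h was called as changed from 0 h for none of the 20 members, Id1 included (1.45% of all loci were).

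Genes of the extracellular matrix were lower. Of 46 measured collagen and matrix genes, 21 fell and 1 rose, against 9.21% and 8.10% of all loci, with a median log2 fold change of -0.44. Fn1, fibronectin, was 499, 443, 467 and 477 FPKM against 163, 310.1, 184 and 243 (-1.11 ± 0.17, adjusted p = 0.00012), and Thbs1, thrombospondin 1, 229, 283, 229 and 289.6 against 122, 125, 119.5 and 96.6. Col5a2, which sets fibril diameter, fell from 402 ± 38.7 to 212 ± 24.5 FPKM and Col8a1, a short-chain collagen, from 8.47 ± 2.46 to 3.38 ± 0.652. Bgn, the small proteoglycan biglycan, fell from 3475 ± 266 to 1955 ± 243 FPKM. Enzymes that modify collagen fell too: the prolyl hydroxylase gene P4ha1 from 137 ± 9.17 to 85.1 ± 6.66 FPKM and the lysyl hydroxylase gene Plod2 from 20.0 ± 4.70 to 9.59 ± 1.27. The member that rose was Tnc, tenascin C, from 10.4 ± 3.36 to 18.6 ± 1.55 FPKM (SD, n = 4; limma adjusted p = 0.00482), named after its value was seen because it was the sole exception. Of the proteases and inhibitors, 5 of 21 measured fell and 3 rose, against 9.21% and 8.10% of all loci. The collagenase gene Mmp13 was 82.8, 144, 94.3 and 179.7 against 35.3, 32.8, 32.5 and 38.2 FPKM, and Timp1, a tissue inhibitor of metalloproteinases, 216, 271, 207 and 296 against 119.8, 115, 108 and 112. The aggrecanase gene Adamts5 and Mmp19 also fell (-0.92 and -0.30). Mmp9, a gelatinase, rose from 4.802 ± 0.318 to 9.81 ± 3.80 FPKM and Plat, tissue plasminogen activator, from 27.5 ± 10.2 to 44.8 ± 6.74. The third rise was that of Adam17, named after its value was seen (0.32), and the calls of Adamts5, Mmp9 and Plat were lost when any of 1 to 3 single libraries was left out.

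Genes of the integrated stress response, in which the factor ATF4 raises amino acid synthesis, transport and tRNA charging, were lower. Of 41 measured genes, 21 fell and none rose, against 9.21% and 8.10% of all loci, and 40 of 41 had a negative log2 fold change (median -0.37). Ddit3, the stress factor CHOP, which also antagonises C/EBP proteins, was 118, 182, 187 and 199.6 FPKM against 53.4, 94.3, 82.6 and 98.8 (-1.06 ± 0.22, adjusted p = 0.00231). Nupr1, a stress-induced chromatin protein, was 90.6, 133, 135 and 144 against 51.7, 67.6, 66.6 and 78.8. Mthfd2, a mitochondrial folate enzyme, fell from 62.9 ± 4.03 to 35.0 ± 1.94 FPKM, the pseudokinase gene Trib3 from 47.9 ± 3.79 to 28.2 ± 4.24, the tRNA exporter gene Xpot from 26.9 ± 0.937 to 18.8 ± 0.410 and the tryptophanyl-tRNA synthetase gene Wars from 37.8 ± 4.49 to 26.7 ± 2.79. At 24 h 24 members were lower and none higher (13.9% and 14.5% of all loci), and at 48 h 29 were lower and 2 higher (22.8% and 23.3% of all loci). The effect was called as changed from 0 h for none of 41 members at 24 h (1.45% of all loci) and for 4 at 48 h (17.9%).
ATF4 and C/EBP factors bind a composite element, searched as TGATGNAA. It was in 14 of 32 promoters of the list (43.8%) and in 4.51% of all genes, among them 9 of 18 members called lower and 5 of 14 not called. It is shown, in capitals, for Nupr1, whose match lies before the start of transcription:
Nupr1: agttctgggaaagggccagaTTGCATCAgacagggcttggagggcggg
It lies at chr7:126625553-126625600 on the minus strand of GRCm38.p6, and Trib3 held a match 15 bases after its start. The windows of Ddit3, Mthfd2 and Xpot held no match.

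Endoplasmic reticulum genes and glycolytic genes fell with these. Of 31 measured chaperones and sensors of the unfolded protein response, 11 fell and 1 rose, against 9.21% and 8.10% of all loci (median -0.26). Ero1l, the oxidase that recharges disulfide exchange, was 159, 108, 124 and 122 FPKM against 60.2, 56.3, 46.6 and 57.2 (-1.19 ± 0.16, adjusted p = 3.5e-05), and its partner P4hb fell from 686 ± 77.9 to 471 ± 80.4. The stress sensor genes Eif2ak3 (PERK, from 13.2 ± 1.39 to 8.48 ± 1.21 FPKM) and Ern1 (IRE1α, from 4.82 ± 0.365 to 2.89 ± 0.351) were also lower. Of 30 measured glycolytic and hypoxia-responsive genes, 15 fell and 1 rose, against the same shares of all loci (median -0.43). Gapdh was 2429.7, 2582, 2612 and 2566 against 1634, 1636, 1659 and 1621 FPKM, with little variation within either group. Ldha, which makes lactate, fell from 886 ± 27.5 to 590.3 ± 23.4 FPKM, and Pgam1, phosphoglycerate mutase, from 557 ± 2.90 to 392 ± 19.5. Ldhb, the lactate dehydrogenase of oxidative tissue, was the member that rose, from 64.7 ± 7.34 to 104 ± 11.1 FPKM (0.68 ± 0.13, adjusted p = 0.00101).
The core of the element bound by hypoxia-inducible factors, ACGTG, was in 17 of 26 promoters of this list (65.4%) and in 21.8% of all genes, with 10 of 14 among those called lower and 7 of 11 among those not called. It overlaps the E-box CACGTG. Matches before the start of named members that fell were:
Ldha: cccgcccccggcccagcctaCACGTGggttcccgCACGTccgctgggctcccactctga
P4ha1: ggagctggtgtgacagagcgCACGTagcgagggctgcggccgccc
Pgam1: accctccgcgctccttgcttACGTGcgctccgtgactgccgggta
These are at chr7:46845736-46845794, chr10:59323260-59323304 and chr19:41911737-41911781, all on the plus strand of GRCm38.p6. Gapdh held a match 43 bases after its start, and the promoter window of Ldhb held none.

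**Figure D4:**
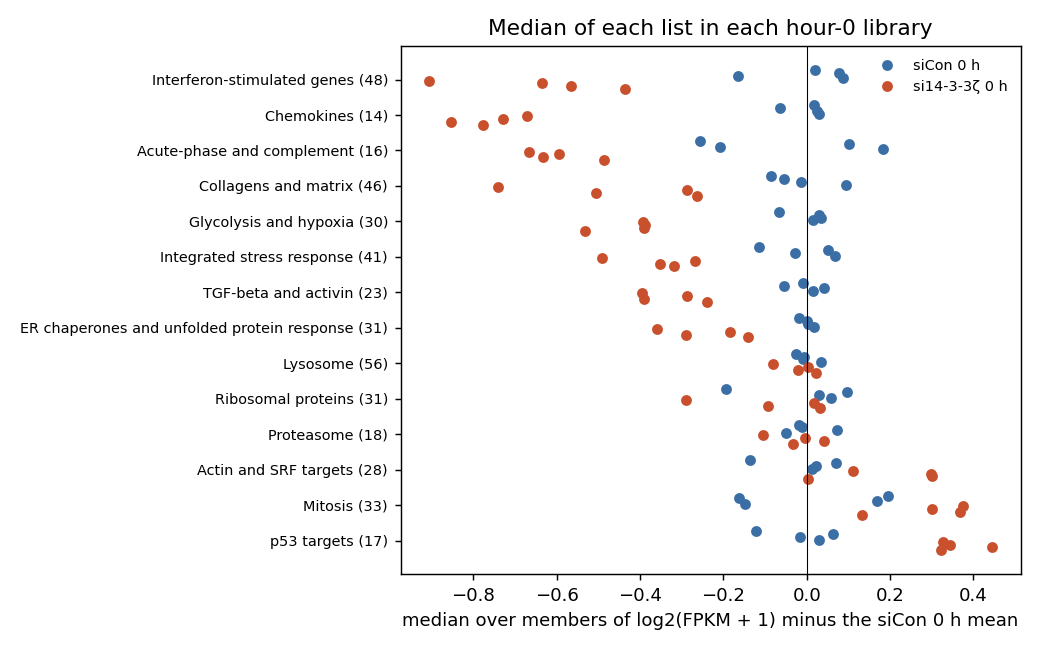
For each list (rows, members measured in brackets), the median over members of log2(FPKM + 1) minus the siCon mean at 0 h, with 1 point per hour-0 library (blue siCon, red si14-3-3ζ). The red points lie to the left of all blue points for the interferon, chemokine, acute-phase, matrix, glycolysis, stress response, TGF-β and chaperone lists and to the right for p53 targets, and the groups overlap for lysosome, ribosomal and proteasome genes.

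Of 6 measured inhibitors of cyclin-dependent kinases, 3 were called higher and 1 lower, against 8.10% and 9.21% of all loci. Cdkn1b, p27, was 34.3, 36.3, 32.8 and 39.1 FPKM in siCon libraries and 66.1, 50.3, 55.2 and 53.2 in si14-3-3ζ libraries (0.64 ± 0.09, adjusted p = 6.6e-05). Cdkn1a, p21, was 93.0, 132, 109.9 and 128 against 144, 169, 156 and 179, and Cdkn2c, p18, 28.1, 32.5, 32.8 and 38.4 against 44.3, 47.4, 48.5 and 49.95. The groups did not overlap for any of these, although the call of Cdkn2c was lost without siCon replicate 1. Cdkn2b, p15, was lower at both loci that carry its symbol, 94.98 ± 17.2 against 66.3 ± 9.73 FPKM at the more abundant, where the groups overlapped and the call was lost without any of 5 libraries. The remaining members were not called, namely Cdkn2a (log2 fold change -0.07, 95% interval -0.28 to 0.14), which had the highest FPKM of the measured members in both groups, and Cdkn2d (0.39, -0.10 to 0.87). Of 17 measured p53 targets, 9 rose and 1 fell, against 8.10% and 9.21% of all loci, with a median log2 fold change of 0.41. Trp53inp1, which promotes p53-driven arrest and autophagy, was 19.5, 18.0, 14.0 and 16.4 FPKM against 42.3, 28.8, 32.0 and 30.5. Sesn1, a sestrin, rose from 8.16 ± 1.67 to 12.5 ± 0.688 FPKM, the apoptosis effector gene Bax from 148 ± 13.0 to 197 ± 12.5, the nuclease gene Aen from 26.3 ± 3.26 to 35.8 ± 4.12 and the death receptor gene Tnfrsf10b from 11.9 ± 1.32 to 15.4 ± 0.905. Each of these had non-overlapping groups. The member that fell was the kinase gene Plk2, from 42.5 ± 4.60 to 27.6 ± 3.37 FPKM, named after its value was seen because it was the sole exception.

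Of 33 measured mitosis genes, 10 were called higher and none lower, against 8.10% and 9.21% of all loci. All 33 had a positive log2 fold change (median 0.30), and the groups were apart for 6 of 33, against 22.1% of all loci. The median over members, relative to the siCon mean, was 0.38, 0.30, 0.37 and 0.13 on the log2 scale in si14-3-3ζ replicates 1 to 4. In siCon replicates 1 to 4 it was 0.20, -0.16, 0.17 and -0.15, so that si14-3-3ζ replicate 4 lay within the siCon range. Each si14-3-3ζ value was above that of the siCon library of the same number, although the numbers were not taken to pair libraries. Mki67, a marker of cycling cells, was 3.94, 3.06, 3.34 and 2.89 FPKM against 4.26, 6.56, 5.66 and 4.00 (0.49 ± 0.13, adjusted p = 0.0143), Cdc20, an activator of the anaphase-promoting complex, 15.5, 13.0, 16.1 and 12.2 against 20.9, 19.1, 17.5 and 18.5, and Nuf2, a kinetochore protein, 4.86, 3.34, 4.36 and 3.75 against 6.89, 7.34, 6.76 and 5.08. These 3 genes are among the 6, and their si14-3-3ζ values lay just above the siCon values. The count depended on single libraries: 2 mitosis genes were called without si14-3-3ζ replicate 3 and 3 without siCon replicate 4. It was 4 without siCon replicate 2 or si14-3-3ζ replicate 1 and 5 without si14-3-3ζ replicate 2. It was 9 without siCon replicate 3, 11 without siCon replicate 1 and 12 without si14-3-3ζ replicate 4. When only the hour-0 libraries were fitted, 3 were called. Of 31 measured DNA replication genes, 4 rose and none fell, against 8.10% and 9.21% of all loci. None was called without siCon replicate 2, 1 without si14-3-3ζ replicate 3 and 2 without siCon replicate 3 or 4 or si14-3-3ζ replicate 2. Leaving out si14-3-3ζ replicate 1, siCon replicate 1 or si14-3-3ζ replicate 4 gave 3, 4 and 6. Of 13 G1 cyclins and kinases, Ccnd1, cyclin D1, fell from 112 ± 7.85 to 74.0 ± 8.29 FPKM (-0.60 ± 0.14, adjusted p = 0.0065) and Cdk6 rose from 6.62 ± 1.46 to 8.87 ± 1.26. The call of Mki67 was lost without si14-3-3ζ replicate 2 or 3 and that of Cdk6 without any of 6 libraries. At 48 h, 17 mitosis genes were lower and 1 higher (22.8% and 23.3% of all loci), and 21 of 33 changed their effect from 0 h (17.9% of all loci). Mitotic genes are repressed in quiescence through the CHR element, TTTGAA, which was in 21 of 28 mitosis promoters (75.0%) in 20.2% of all genes, in 5 of 8 members called higher and in 16 of 20 not called. It is given, in capitals, for named members that hold it before their start:
Cdc20: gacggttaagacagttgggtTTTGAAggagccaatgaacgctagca
Mki67: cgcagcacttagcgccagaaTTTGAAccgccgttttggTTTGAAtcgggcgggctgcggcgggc
They lie at chr4:118437336-118437381 and chr7:135716452-135716515, both on the minus strand of GRCm38.p6. Bub1b held a match 41 bases after its start.

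No difference passed the test for the core adipogenic factors before induction. Pparg was 60.6, 42.8, 56.4 and 39.6 FPKM against 49.1, 50.3, 53.3 and 45.5, with a log2 fold change of 0.01 (95% interval -0.42 to 0.44). Cebpa was 3.80 ± 0.646 against 4.08 ± 0.289 FPKM (interval -0.44 to 0.62) and Cebpd 84.1 ± 18.3 against 92.8 ± 2.60 (interval -0.15 to 0.48). Foxo1 was 4.37 ± 1.07 against 4.29 ± 0.287 FPKM (interval -0.27 to 0.25), and Dlk1, the pre-adipocyte marker Pref-1, 807 ± 102 against 670.3 ± 93.2 (interval -0.54 to 0.00). The groups overlapped for all 5, and none passed the test. Cebpb shares a locus with another transcript. Of 26 measured adipogenic factors, 3 rose and 1 fell, against 8.10% and 9.21% of all loci: Rxra, the partner of PPARγ, from 51.6 ± 1.84 to 67.9 ± 5.71 FPKM, Klf5 from 3.11 ± 0.288 to 6.17 ± 1.23, Klf9 from 26.8 ± 2.75 to 32.3 ± 0.859, and Ddit3, which fell. The calls of Klf5 and Klf9 were each lost without any of 6 or 7 libraries.

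Fat storage genes were largely not called, with Lpl as the exception. Of 25 measured, 1 fell and none rose, against 9.21% and 8.10% of all loci. Lpl, lipoprotein lipase, which releases fatty acids from circulating lipoproteins, was 1004, 1246, 1261 and 1338 FPKM against 254, 383, 300.2 and 396 (-1.87 ± 0.24, adjusted p = 2e-05). Lipa, the lysosomal acid lipase that acts on endocytosed lipid, was 105, 103, 97.4 and 105 against 41.2, 44.4, 39.7 and 46.9 (-1.23 ± 0.08, adjusted p = 1.8e-09). Lysosomal genes as a group had no common direction, with 8 of 56 lower, 5 higher (9.21% and 8.10% of all loci) and a median of 0.00. Scarb2, the receptor that sorts glucocerebrosidase, fell from 76.7 ± 3.07 to 53.1 ± 5.88 FPKM and Ctsk, cathepsin K, from 139 ± 13.8 to 99.2 ± 5.22. Glb1, a β-galactosidase, rose from 44.1 ± 3.08 to 59.8 ± 1.91 FPKM, Arsa, arylsulfatase A, from 70.03 ± 9.69 to 93.6 ± 4.97 and the proton pump gene Atp6v0d1 from 182 ± 7.76 to 231 ± 4.28. Of 25 autophagy genes, 2 fell and none rose, against 9.21% and 8.10% of all loci. The share that fell (8.0%) was near that of all loci. The 2 were Wipi1, an early phagophore protein, from 61.2 ± 8.32 to 41.5 ± 5.39 FPKM, and the cargo receptor gene Sqstm1, p62, from 458 ± 31.2 to 366 ± 23.8.

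The counts of the remaining lists are set against 8.10% higher and 9.21% lower over all loci. The largest higher shares were 21.4% for actin and SRF genes and 19.0% for YAP genes. The largest lower shares were 20.0% for prostaglandin genes and 19.0% for IGF axis genes. Wnt genes (12.0% each way), gp130 genes (11.8% each way) and ribosomal protein genes (12.9% lower) lay nearer to all loci. In the Hedgehog pathway, the receptor gene Ptch1 was 12.2, 8.02, 10.1 and 7.40 FPKM against 5.85, 4.48, 6.21 and 3.53 (-0.79 ± 0.19, adjusted p = 0.00521) and Sufu, an inhibitor of Gli factors, rose from 16.5 ± 1.10 to 22.4 ± 3.47, of 11 measured. Smo (0.14), Gli2 (0.37) and Gli3 (0.30) were not called, and Gli1 stood at 0.0660 ± 0.0852 and 0.160 ± 0.0621 FPKM, listed near 0 in both groups. Smo passed after quantile normalization. No Hedgehog promoter held the Gli element TGGGTGGTC (0 of 9). Only 0.289% of all genes held it, so 9 promoters are too few for its absence to be informative. Of 25 Wnt genes, 3 rose and 3 fell, the falls being Wisp2 (from 157 ± 8.38 to 80.9 ± 4.47 FPKM), Wisp1 (from 20.7 ± 1.96 to 12.7 ± 1.29) and the inhibitor gene Kremen1, and the rises the co-receptor gene Lrp6 (0.43), Apc (0.36) and Ctnnb1 (0.21). Of 17 gp130 cytokine genes, 2 fell, among them Jak1 (-0.40), and Il6ra rose (0.52) beside Cntfr. In the IGF axis, the binding protein genes Igfbp4 (-1.45) and Igfbp7 (-0.79), Stc1 (-1.19) and Pik3r1 (-0.82) fell and Igf1r rose (0.56), of 21. Of 28 actin and SRF genes, 6 rose and 1 fell, against 8.10% and 9.21% of all loci. Actg2, smooth muscle γ-actin, was 20.5, 16.4, 19.7 and 16.1 against 46.1, 41.7, 42.8 and 25.2 FPKM. Vcl, vinculin, rose from 30.1 ± 0.557 to 43.6 ± 6.10, and the LIM protein gene Fhl2 fell from 78.3 ± 8.06 to 47.9 ± 1.65. Of 29 immediate-early genes, Jun (0.62), Spry2 (0.41) and Dusp10 (0.60) rose and Maff (-0.78) fell. None of the 21 promoters of this list held the AP-1 element TGANTCA (8.97% of all genes). At that share few matches are expected among 21 promoters, too few to judge its absence. Of 21 YAP genes, 4 rose, including Tead4 (0.51) and Yap1 (0.26), and 2 fell, Nuak2 (-0.60) and Amotl1 (-0.31). Of 24 Nrf2 targets, Srxn1 alone was called (-0.33), and the antioxidant element TGACNNNGC was in 8 of 18 promoters (44.4%, against 14.0%). Prostaglandin genes fell in 2 of 10 (Ptger4 -0.52, Ptges2 -0.40) and fatty acid synthesis genes split, with Acss2 higher (0.43) and Fads2 lower (-0.34) of 14. No Notch (9), cholesterol synthesis (17), proteasome (18) or RNA silencing (7) gene passed limma's adjusted test. Of 31 ribosomal protein genes, 4 fell (Rplp0, Rplp1, Rpl14 and Rpsa, -0.31 to -0.48), and Rplp1 turned positive after quantile normalization. Of 35 respiratory chain genes, Ndufa9 (0.27) and Sdhc (0.35) rose and Uqcrq (-0.44) fell. Of the genes in this paragraph, the calls of Apc, Ctnnb1, Il6ra, Igfbp4, Spry2, Dusp10, Yap1, Amotl1, Srxn1, Ptger4, Ptges2, Acss2, Fads2, Rplp0, Rpl14, Rpsa, Sdhc and Uqcrq were each lost when at least 1 single library was left out.

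The libraries carried the markers of fibroblasts and pre-adipocytes. All 8 measured markers were present in both groups, and their summed level ran from 7410 to 8420 FPKM in siCon libraries and from 3750 to 5290 in si14-3-3ζ libraries. Col1a1 (-0.88), Col1a2 (-0.83), Col3a1 (-0.91) and Fn1 fell (the call of Col1a2 was lost after quantile normalization), whereas Pdgfra (-0.07, interval -0.48 to 0.35), Pdgfrb (-0.27), Thy1 (-0.68) and Dlk1 were not called. Of 8 macrophage markers, Cd14 and Lyz2 could be measured alone, and their sum ran from 33.0 to 43.2 FPKM in siCon libraries and from 35.0 to 39.9 in si14-3-3ζ libraries. Neither was called, and their log2 fold changes had opposite signs (-0.15 and 0.39, lowest first). Any relation to the falls of Mpeg1, Ear11 and the chemokines was not tested. The other macrophage markers were not analysed here or share a locus. Vwf, of 7 endothelial markers, ran from 0.843 to 2.39 FPKM and Des, of 7 skeletal muscle markers, from 2.44 to 6.14. No epithelial marker was analysed here. The sum of 5 mature adipocyte markers, nearly all of it Fabp4, ran from 241 to 472 FPKM in siCon libraries, higher in replicates 1 and 3, and from 252 to 339 in si14-3-3ζ libraries.

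Many of the loci called at 0 h were also called after induction. The fit takes 1 spread for each locus from all 24 libraries, so the calls at different times are not independent of each other. Of the 750 loci higher at 0 h, 438 (58.4%) were called higher at 24 h, when 14.5% of all loci were, and 456 (60.8%) at 48 h (23.3% of all loci). Of the 853 lower loci, 541 (63.4%) were lower at 24 h (13.9% of all loci) and 440 (51.6%) at 48 h (22.8%). Seen from the later times, these made up 32.6% and 21.1% of the higher and 41.9% and 20.9% of the lower calls at 24 and 48 h. Calls in the opposite direction were made for 6 of the higher and 5 of the lower loci at 24 h and for 34 and 52 at 48 h. Ywhaz itself stayed low, with log2 fold changes of -2.61 and -2.73. The size of the effect was called as changed from 0 h for 61 of the 1603 loci at 24 h (1.45% of all loci were) and for 398 at 48 h (17.9%). The 1603 loci were picked by their 0 h values, which also enter the change. Effects that shrink later are therefore favoured among them, and a share above that of all loci is expected in part.

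Among the largest of these changes, several genes lost their fall. Saa3 went from -2.32 at 0 h to -0.29 at 48 h (change 2.03 ± 0.39, adjusted p = 0.00121). Lcn2 went from -1.04 to 0.31 at 24 h and 0.68 at 48 h (changes 1.35 ± 0.22, adjusted p = 0.00227, and 1.72 ± 0.22, adjusted p = 2.5e-05). Ceruloplasmin, Cp, another acute-phase protein, went from -0.59 to 1.07 (change 1.67 ± 0.25, adjusted p = 0.00014), and the serine protease gene Prss23 from -0.32 to 1.29 (change 1.61 ± 0.11, adjusted p = 3.2e-09). Mpeg1 went from -1.66 to 0.01, while its siCon mean dropped to 0.0714 ± 0.0596 FPKM. Rsad2 went from -1.65 to 0.02 with a siCon mean of 0.139 ± 0.106 FPKM. Pi15, a secreted peptidase inhibitor, went from -1.23 to 0.23 at 24 h (change 1.45 ± 0.26, adjusted p = 0.00458). Some falls grew instead, as Spon2, a matrix protein of the spondin family, did from -0.76 to -2.41 (change -1.65 ± 0.32, adjusted p = 0.00742) when its siCon mean rose from 3.81 ± 0.441 to 62.3 ± 8.57 FPKM. The 0 h calls of Cp and Spon2 were lost without any of 4 and 5 libraries, and that of Ddx60 with a pseudocount of 0.1.

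**Figure D5:**
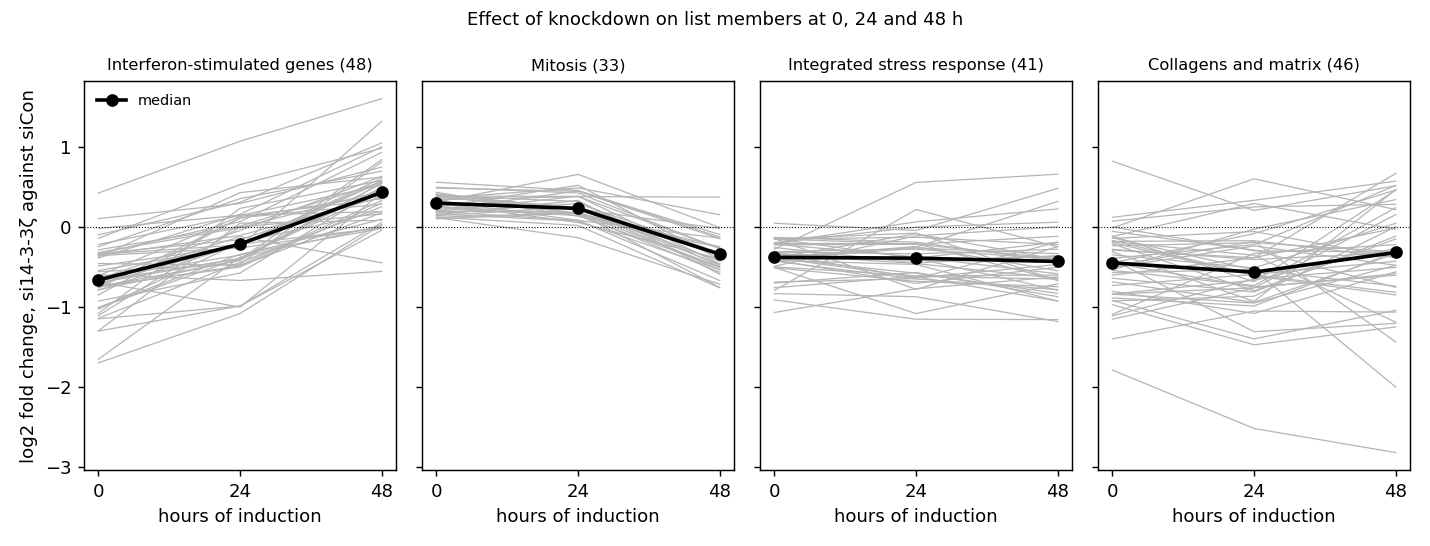
Log2 fold change of si14-3-3ζ against siCon cells (vertical axis) at 0, 24 and 48 h of induction (horizontal axis) for the members of 4 lists. Each grey line is 1 gene and the black line the median over members. Interferon-stimulated genes go from a median of -0.66 at 0 h to 0.44 at 48 h and mitosis genes from 0.30 to -0.34, while stress response (-0.37 to -0.43) and matrix genes (-0.44 to -0.31) stay below 0.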

How the data were processed

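RNA-Seq was made from 24 libraries of 3T3-L1 cells, of which the 8 of hour 0 were compared here. Per the labels, total RNA was made into libraries with Illumina TruSeq V2 kits and sequenced on an Illumina HiSeq instrument. The submitters' processing notes name TopHat2 2.0.11, Cufflinks 2.2.0 and the build NCBIM37. The authors deposited 1 table of FPKM values with a column for each library and no counts, so no counting interval can be given. It lists 9262 loci, 576 with more than 1 gene symbol and 136 with none. Named genes are loci with 1 symbol, and for a symbol at more than 1 locus the more abundant is meant unless stated.

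Values were taken as log2(FPKM + 1). A linear model with 6 group means (siRNA by time) was fitted to all 24 libraries in limma 3.58.1 under R 4.3.3 with a variance trend, so that all groups share an estimate of the spread. A locus was called at a Benjamini-Hochberg adjusted p under 0.05 over all 9262 loci. The change of the knockdown effect between times was tested as an interaction contrast, and these contrasts share no libraries other than those of hour 0. The scripts were tested on simulated data with known changes. Sums were compared by an exact permutation test. Tables were handled in pandas 2.3.3 (Python 3.11.15, with numpy 2.4.6), the permutation test was run in scipy 1.17.1 and plots were drawn in matplotlib 3.10.9.

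The text names the 20 largest rises and 20 largest falls among called single-symbol loci whose groups do not overlap and whose higher mean is at least 1 FPKM, drawing on up to 6 called members of each of 45 gene lists by smallest adjusted p, on a fixed set of 14-3-3, cell cycle, Hedgehog and adipogenic genes, and on the 10 largest changes of effect at each later time. Predicted genes, pseudogenes and small RNAs were left out, and some genes that the rule names are not reported here. The members and lists were chosen with earlier results of these data known. Positions are from GENCODE M1 on NCBIM37. Promoter windows, from 250 bases before to 50 after the start, are RefSeq sequences on GRCm38.p6 for 27025 genes, and letters were searched on both strands.

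Alternatives were a pseudocount of 0.1, median-ratio scaling, quantile normalization, a fit to only the libraries compared and no variance trend. Each hour-0 library was also omitted in turn, and a block for the replicate number was fitted. There were 2 filters on low values over all 24 libraries: 4 or more libraries reaching 1 FPKM, and a mean of at least 5 FPKM.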

Additional observations from a re-analysis of the deposited data

Results flagged for a closer look

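Of the 2 groups of 4 hour-0 libraries for each named gene and for the summed FPKM, 382 were examined for a library far from the other 3, and chance alone flags about 1 in 20. A library stood apart in 12 of them (3.14%). Among siCon libraries, replicate 3 was lowest for Ccnd1 (100.4 FPKM) and Tead4 (6.49) and highest for Ywhae (259), replicate 4 was lowest for Jak1 (111), replicate 2 was lowest for Mthfd2 (56.9) and Wisp1 (17.8), and replicate 1 was lowest for the ribosomal protein genes Rpl14 (663) and Rplp0 (1930.5). Among si14-3-3ζ libraries, replicate 3 was lowest for Col8a1 (2.42 FPKM), replicate 2 highest for Jak1 (95.2), and replicate 1 highest for Olr1 (5.94) and lowest for Plk2 (22.5).

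The effect of knockdown differed between 0 h and a later time, by the interaction test in limma, for these named genes. They were picked among loci called at 0 h, which favours effects that shrink later. At 24 h the change on the log2 scale was 1.45 for Pi15, 1.28 for Rsad2, 1.31 for Mx1, 1.32 for Mpeg1 and 1.35 for Lcn2, whose falls at 0 h were smaller or gone. It was -1.58 for Inhba, -1.32 for Pmepa1 and -1.65 for Spon2, whose falls were larger. At 48 h the change was 1.67 for Rsad2, 1.66 for Mx1, 1.67 for Mpeg1, 1.73 for Ifit3, 1.72 for Lcn2, 1.67 for Cp, 2.03 for Saa3, 1.61 for Prss23, 1.65 for Ddx60 and 1.69 for the less abundant Cdkn2b locus. The 24 h change of Mx1 and Rsad2 was no longer called with a pseudocount of 0.1 or without 5 and 6 of the 8 libraries in turn, and that of Mpeg1 was no longer called with a pseudocount of 0.1.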

How the results depend on the processing

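Of 178 named genes called at 0 h, 177 kept their direction under every alternative run, the exception being Rplp1, which had a log2 fold change of 0.0591 after quantile normalization, and 125 kept their call. Calls were lost by 36 of them without si14-3-3ζ replicate 3, 17 in the fit to only the libraries compared, 11 with a pseudocount of 0.1 and none with the block. Among genes not called, Foxo1 turned positive after quantile normalization (0.0047) and ran from -0.0789 to 0.1242 when 1 library was left out, and Pparg then ran from -0.0894 to 0.1105.

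Leaving out 1 library gave 1023 to 1434 called loci at 0 h, 420 to 657 higher and 603 to 794 lower, with 11 to 20 over 2-fold higher and 83 to 108 over 2-fold lower. It gave 71 to 140 loci with a changed effect at 24 h and 1269 to 1729 at 48 h. Over 2-fold rises numbered 37 with a pseudocount of 0.1 and 8 at a mean of at least 5 FPKM, and over 2-fold falls 55 at that mean. Changed effects at 24 h numbered 78 with that pseudocount and 85 at that mean. With fewer loci or libraries these counts fall in part by construction, and otherwise the cause was not tested.

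Same-numbered libraries of the 2 groups deviated together at r from 0.0834 to 0.505 and others at -0.378 to 0.194, so the number was not taken to pair them at the line of 0.1, although 7 of 8 libraries correlated best with their own number. With the replicate block, 2674 loci were called at 0 h (1295 higher and 1379 lower), and 405 and 2802 had a changed effect at 24 and 48 h. Scaling moved the median log2 fold change of all loci by at most 0.0148. Without counts, the precision of a single value at low FPKM is unknown.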
